A study of Homo sapiens with 36 samples.

Results

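The aryl hydrocarbon receptor (AHR), its feedback regulators AHRR and TIPARP, and 6 cytochrome P450 genes (CYP1A1, CYP1B1, CYP24A1, CYP27B1, CYP2S1 and CYP4F11) were followed across 36 Illumina expression BeadChip arrays. The members were picked by name, with earlier results of these same arrays known, and every probe that the platform annotation assigns to them was used. They are 9 genes of 20046 on the array, with 11 probes of 47231. A probe was taken as above background on an array where its detection p-value was under 0.01. Of the 11 member probes, 8 were above background on all 3 arrays of at least 1 group, and these passed the filter that left 14872 probes for testing.

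The arrays form 12 groups of 3 biological replicates of cells labelled MCF-10A, a non-transformed mammary epithelial cell line. Wild type cells were a mock control with no hairpin, and shControl cells carried a scrambled short hairpin RNA. The other 10 lines stably carried lentiviral hairpins to the mRNA of a DNA damage response gene: shATM-1 and shATM-3 (ATM), shATR-3 and shATR-4 (ATR), shCHK1-3 and shCHK1-4 (CHEK1), shCHK2-1 and shCHK2-2 (CHEK2), and sh53BP1-1 and sh53BP1-2 (TP53BP1). All groups were grown in the same medium, seeded at 200000 cells on 10 cm plates and harvested after 48 hours, and no receptor ligand is named in the labels. Each hairpin is represented by 1 line, which the sources used here call neither a clone nor a pool, so p-values measure the spread between cultures of a line.

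Before any result, the labels have to be set against the data. MCF-10A cells are known to lack MTAP, CDKN2A and CDKN2B, and in the wild type, shControl and sh53BP1 groups none of these 3 genes rose above background (0 of 12 arrays). All 24 arrays of the ATM, ATR, CHEK1 and CHEK2 lines, called the 8 kinase lines here, had all 3 above background, with a log2 signal of MTAP between 8.98 and 10.43. These 8 lines therefore go against the label that they share with the other 4 groups, and a difference between them and shControl cannot be told apart from a difference in cell origin. Of 8 basal mammary markers, 6 have a probe (KRT5, KRT14, ITGA6, LAMB3, CDH1 and EPCAM), and all 6 were above background on all 36 arrays. The luminal keratin KRT19 was above background on 0 of the 24 kinase line arrays and on all 12 others. Of the 7 luminal markers, 2 were above background on all 24 kinase line arrays and 3 on none. In wild type 5 were above background on all arrays and 1 on none. Compared with shControl, the target mRNA was at 53.8% and 48.8% in the ATM lines, 84.0% and 82.9% in the CHEK1 lines, 50.2% and 93.2% in the CHEK2 lines, and 16% and 19.8% in the TP53BP1 lines. The ATR probe was not above background on any array.

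AHR is a ligand-activated transcription factor that waits in the cytoplasm with HSP90 and, once bound by dioxin-like or endogenous ligands, moves to the nucleus, pairs with ARNT and binds DNA. CYP1A1 and CYP1B1, mono-oxygenases of polycyclic hydrocarbons and oestrogens, are its best known target genes, and CYP1B1 is the main form of the family in mammary epithelium. AHRR (a repressor that competes for ARNT) and TIPARP (a mono-ADP-ribosyltransferase that acts on AHR) are targets that dampen the receptor. CYP27B1 makes the active form of vitamin D, CYP24A1 breaks it down and is the classic target of the vitamin D receptor, CYP2S1 is another P450 known to respond to dioxin, and CYP4F11 is a fatty acid omega-hydroxylase.

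AHR with ARNT binds a response element whose core is GCGTG. The 250 bases before the annotated start were searched for these letters on both strands, using the RefSeq promoter table of GRCh38.p14, which matched 6 of the 9 members. CYP1B1, CYP24A1 and CYP27B1 were not among the matches. Of 35116 such windows in the table, 32.2% held the core. The windows of 3 members that rose in shControl cells are shown because they differ in this core, in lower case with the core (or its reverse complement, CACGC) in capitals. CYP1A1 lies on the reverse strand at chr15:74725529-74725778, TIPARP on the forward strand at chr3:156674340-156674589, and CYP4F11 on the reverse strand at chr19:15934868-15935117. Each is printed 5′ to 3′ on the gene's strand.
CYP1A1: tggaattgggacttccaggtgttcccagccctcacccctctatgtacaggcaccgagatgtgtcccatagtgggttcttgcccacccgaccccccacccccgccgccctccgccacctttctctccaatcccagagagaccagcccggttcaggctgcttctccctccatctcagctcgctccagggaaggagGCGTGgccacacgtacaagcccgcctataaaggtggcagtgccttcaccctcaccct
TIPARP: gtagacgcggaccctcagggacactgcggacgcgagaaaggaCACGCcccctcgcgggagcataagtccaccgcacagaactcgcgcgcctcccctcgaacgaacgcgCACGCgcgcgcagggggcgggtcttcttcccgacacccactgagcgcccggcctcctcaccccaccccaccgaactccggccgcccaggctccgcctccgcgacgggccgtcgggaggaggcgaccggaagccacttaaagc
CYP4F11: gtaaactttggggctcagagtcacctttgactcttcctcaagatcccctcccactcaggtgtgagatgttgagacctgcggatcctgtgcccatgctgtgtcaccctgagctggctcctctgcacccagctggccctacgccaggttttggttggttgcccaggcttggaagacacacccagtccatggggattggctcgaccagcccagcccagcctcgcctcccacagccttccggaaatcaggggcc
The CYP1A1 window held 1 match, 57 bases before the start. The table has 3 TIPARP windows, for different annotated starts. The printed one held 2 matches, both on the reverse strand, at 208 and 142 bases before the start, and the other 2 held 0. Both CYP4F11 windows, of which 1 is printed, and the windows of AHR and CYP2S1 held 0, while the 2 windows of AHRR held 1 and 2. A match describes these letters only, and no binding was measured.

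The receptor mRNA itself was above background on all 36 arrays with both of its probes, which disagreed. With probe ILMN_1812640 the log2 signal was 12.73, 12.95 and 12.97 in wild type and 12.76, 12.90 and 12.86 in shControl. Over the 24 kinase line arrays the same probe ran from 12.47 through a median of 12.74 to 13.01, and every kinase line overlapped shControl and wild type. With probe ILMN_2162799 the values were 7.98, 7.97 and 7.83 in wild type, 7.49, 8.06 and 7.71 in shControl, and from 6.24 through 6.59 to 6.97 over the kinase line arrays. By this second probe all 8 kinase lines lay below both controls without overlap. The difference from shControl ran from -1.26 in shCHK2-2 to -1.0 in shATM-3 on the log2 scale (SE 0.157 each). On the deposited log2 values, which carry no background correction, the 8 differences were smaller, from -0.74 to -0.61. Which part of the transcript each probe reads was not examined, so AHR mRNA in these lines is described by probe.

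AHRR, the repressor, was not above background on any of the 36 arrays (log2 signal 4.29 to 4.64). CYP2S1 was likewise not above background on any array with either probe (4.26 to 4.73 with ILMN_1705403 and 4.33 to 4.92 with ILMN_1787193). For these 2 genes no fold change is given, since values under background have no order.

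**Figure D1:**
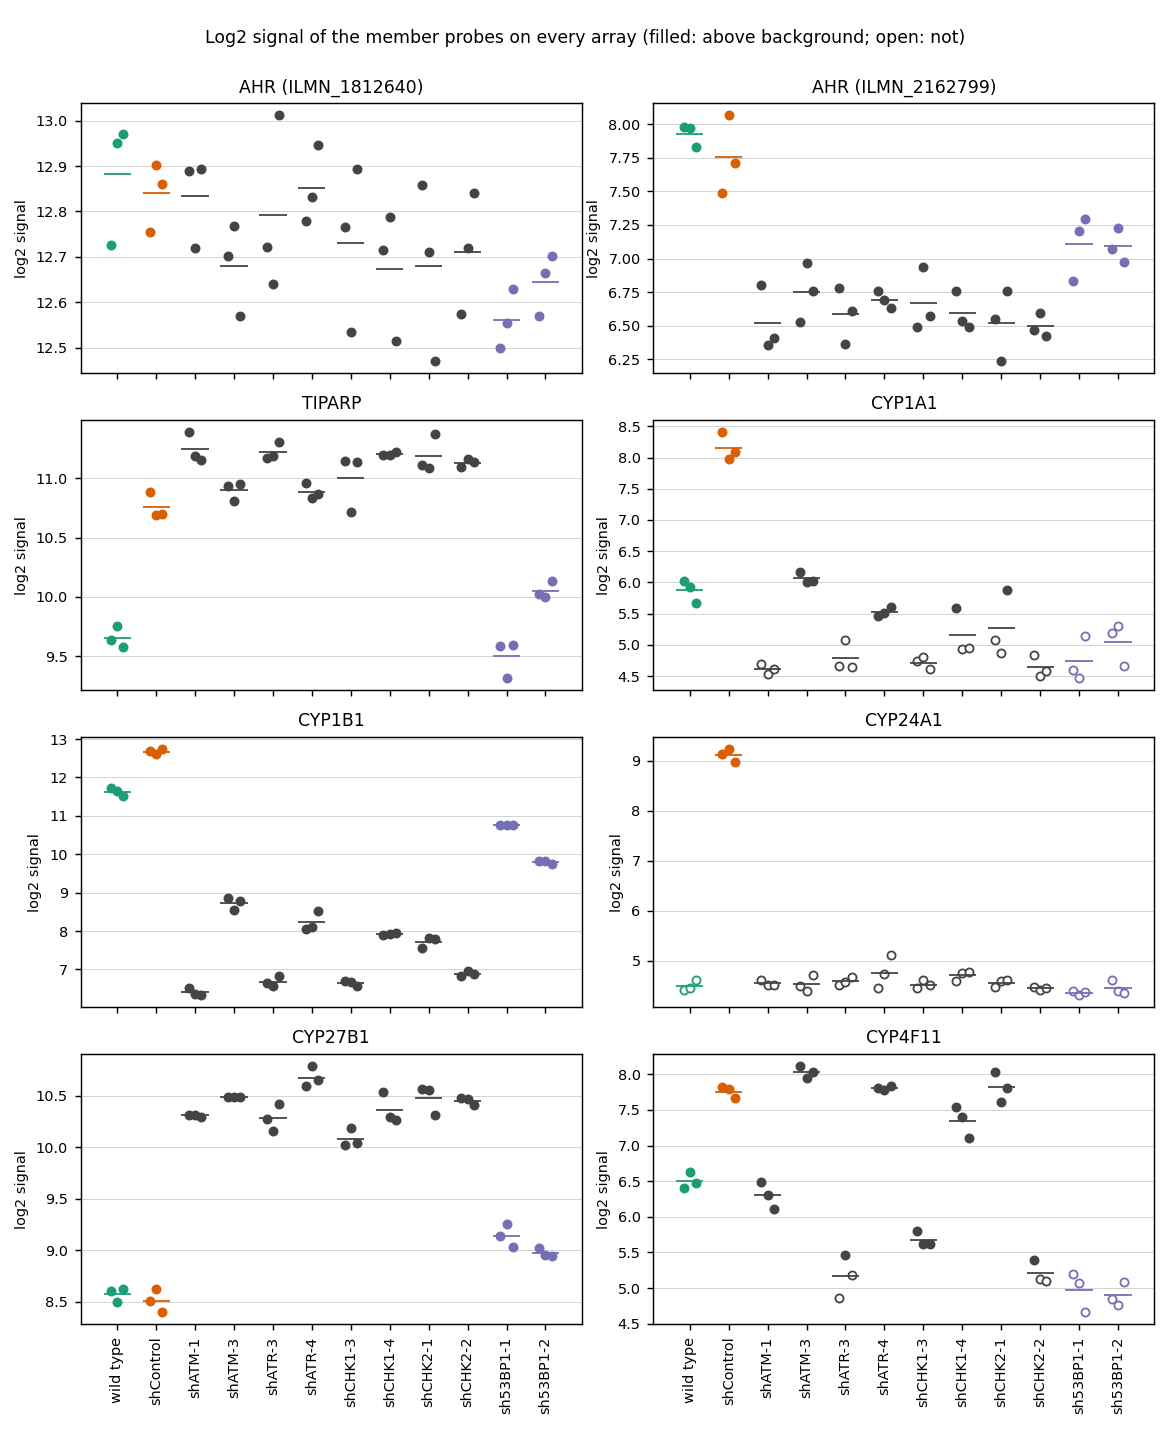
Log2 signal (y axis, neqc) of the 8 member probes above background in a group, on each of the 3 arrays of the 12 groups (x axis). Filled points were above background, open points were not, and horizontal lines are group means. CYP24A1 is above background only in shControl, and CYP1B1 falls from shControl and wild type through the sh53BP1 lines to the 8 kinase lines.

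The scrambled hairpin line differed from wild type in several of these genes. In shControl minus wild type, 5 of the 8 member probes passed an adjusted p of 0.05 (limma, Benjamini-Hochberg over all 14872 probes), all 5 higher in shControl. Over all probes 28.1% passed in either direction and 13.3% passed as higher. The 5 include CYP24A1, which passed the filter only through the shControl arrays. The p-values of members are for genes chosen with results of these arrays known and are not independent evidence of a direction.

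CYP24A1, the vitamin D 24-hydroxylase, showed the widest gap. Its log2 signal was 9.15, 9.23 and 8.97 in shControl and 4.42, 4.46 and 4.62 in wild type, where it was not above background on any array. Only the 3 shControl arrays of all 36 were above background for CYP24A1. CYP24A1 passed the filter only through these arrays, so its direction against every other group was fixed in advance. Because wild type gives only a bound, shControl was at least 14.5-fold higher. That bound sets the mean of the bright group against, on each dim array, the higher of the probe's own signal and the lowest signal above background.

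CYP1A1, the most ligand-responsive P450 of the receptor, had log2 signals of 8.40, 7.97 and 8.09 in shControl against 6.02, 5.93 and 5.68 in wild type. The groups did not overlap, with a difference of 2.28 (SE 0.207, n = 3 per group, 4.85-fold, adjusted p = 4.34e-10 in limma). CYP1B1 was 12.68, 12.60 and 12.73 in shControl against 11.73, 11.66 and 11.51 in wild type, a difference of 1.03 (SE 0.103, 2.05-fold, adjusted p = 2.56e-09 in limma). The feedback gene TIPARP rose by 1.11 (SE 0.103, adjusted p = 7.24e-10, limma), from 9.63, 9.75 and 9.58 to 10.89, 10.69 and 10.70. CYP4F11, the fatty acid hydroxylase, rose by 1.26 (SE 0.143, adjusted p = 4.00e-08, limma), from 6.41, 6.62 and 6.47 to 7.82, 7.79 and 7.66.

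Neither AHR probe passed in shControl minus wild type (-0.04 with ILMN_1812640, adjusted p = 0.828 in limma, and -0.17 with ILMN_2162799, adjusted p = 0.462). CYP27B1, the 1-alpha-hydroxylase of vitamin D, did not pass either (-0.07, adjusted p = 0.635, limma), with 8.50, 8.62 and 8.40 in shControl and 8.61, 8.50 and 8.63 in wild type. On the deposited log2 values, which carry no background correction, the differences of the dim probes were smaller, at 2.53 for CYP24A1, 1.28 for CYP1A1 and 0.73 for CYP4F11.

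CYP1A1, CYP1B1 and CYP24A1 were higher on every shControl array than on any of the 33 arrays of the other 11 groups. That is 3 of 8 member probes and 6.46% of all probes. For CYP24A1, kept only through shControl, this was fixed in advance. On every shControl array 0 of 8 were lower (4.77% of all probes). Cell type markers also differed in the same line. The fibroblast genes DCN and LUM were above background on all 3 shControl arrays, at mean log2 signals of 8.92 and 7.88, and LUM was not above background on any other array. Of the 7 fibroblast markers the defining COL3A1 and PDGFRB were not above background anywhere. The summed background-corrected signal of the 7 was 4551 to 5094 in shControl and 909.8 to 1028 in wild type. It was 413 to 484 in the sh53BP1 lines and 3316 to 10133 in the kinase lines. Of the 7, 1 gene was above background on every array, and on all shControl arrays only DCN and LUM joined it. At the means given, DCN and LUM made up a small part of the shControl sum. The sums are therefore not read as a measure of fibroblast content. The summed signal of the 7 luminal markers was 7184 to 8122 in shControl, 12719 to 13565 in wild type, 10396 to 12454 in the sh53BP1 lines and 1047 to 3413 in the kinase lines. That of the 6 basal markers was 16239 to 17250 in shControl, 21512 to 23631 in wild type, 22064 to 24990 in the sh53BP1 lines and 17091 to 34473 in the kinase lines. The 3 endothelial markers PECAM1, CDH5 and VWF summed to 153.3 to 207.7 in shControl, 202.0 to 240.2 in wild type, 148.2 to 178.9 in the sh53BP1 lines and 61.1 to 84.3 in the kinase lines, with VWF not above background on any array. Of the 4 leukocyte markers, 1 was above background on every array, and PTPRC and CD3E were not above background on any array. The remaining gene was above background on some kinase line arrays only. The 4 summed to 1750 to 2096 in shControl and 1655 to 1911 in wild type. In the sh53BP1 lines the sum was 1352 to 1651, and in the kinase lines 1225 to 2354. The part of other cells in the shControl result was not tested, and fewer cells of a type and less RNA per cell cannot be told apart in these bulk samples.

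**Figure D2:**
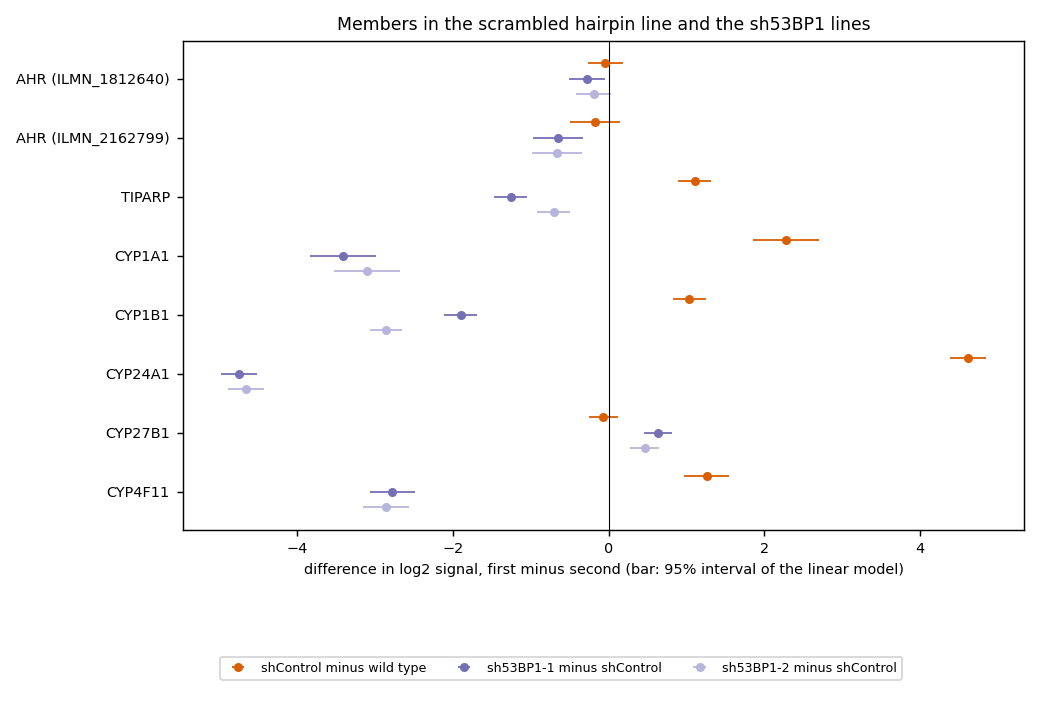
Difference in log2 signal (x axis) of the 8 member probes (y axis) for shControl minus wild type and for each sh53BP1 line minus shControl, as points with the 95% interval of the linear model. The 5 genes higher in shControl than in wild type (TIPARP, CYP1A1, CYP1B1, CYP24A1 and CYP4F11) are all lower in both sh53BP1 lines than in shControl. These comparisons share the shControl arrays. Where a group was not above background, the size drawn is that of signals under background. This is so for CYP24A1 in all 3 comparisons and for CYP1A1 and CYP4F11 in the sh53BP1 lines. Only the bounds in the text apply there, and for background-corrected signals.

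Both lines with hairpins to TP53BP1, the gene of the adaptor protein 53BP1, had less of these mRNAs than shControl. In sh53BP1-1 minus shControl 8 of 8 member probes passed (58.2% of all probes) and in sh53BP1-2 minus shControl 7 of 8 passed (54.6% of all probes). In both lines 6 of 8 were lower (23.7% of all probes) and 1 was higher (23.7% of all probes). The 6 include CYP24A1, kept only through shControl, so its direction was fixed in advance. CYP1B1 was 10.77, 10.76 and 10.77 in sh53BP1-1 and 9.83, 9.83 and 9.76 in sh53BP1-2. Against shControl these are differences of -1.90 and -2.86 (SE 0.103 each, 3.73-fold and 7.28-fold lower, adjusted p = 8.79e-16 and 4.20e-20 in limma).

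CYP24A1, CYP1A1 and CYP4F11 were not above background on any of the 6 sh53BP1 arrays. CYP24A1 was at least 12.3-fold and 12.5-fold lower than in shControl in sh53BP1-1 and sh53BP1-2. CYP1A1 was at least 6.31-fold and 6.42-fold lower, and CYP4F11 at least 4.79-fold and 4.88-fold lower. The largest of the 6 adjusted p-values was 1.54e-13 (CYP1A1 in sh53BP1-2, limma). On the deposited values, which carry no background correction, the differences were -2.62 and -2.56 for CYP24A1, -1.66 and -1.55 for CYP1A1, and -1.29 and -1.31 for CYP4F11. TIPARP fell by 1.26 in sh53BP1-1 (9.59, 9.32 and 9.59) and by 0.71 in sh53BP1-2 (10.02, 10.00 and 10.14), with adjusted p = 1.21e-11 and 1.10e-06 in limma.

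CYP27B1 moved the other way. It was 9.14, 9.26 and 9.03 in sh53BP1-1 and 9.02, 8.95 and 8.94 in sh53BP1-2, all 6 above every shControl array, with differences of 0.63 and 0.46 (SE 0.0897 each, adjusted p = 5.92e-07 and 7.28e-05 in limma). AHR fell by 0.65 and by 0.66 with probe ILMN_2162799 (adjusted p = 0.00084 and 0.000704, limma), with differences of -0.41 and -0.42 on the deposited values. With ILMN_1812640 it was lower by a difference of -0.28 in sh53BP1-1 (adjusted p = 0.0338, limma), a call lost when shControl replicate 2 or sh53BP1-1 replicate 1 was left out (limma, adjusted p = 0.100 and 0.101). In sh53BP1-2 the same probe did not pass (-0.19, adjusted p = 0.142, limma).

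Because shControl itself stood apart from wild type, each sh53BP1 line was also set against wild type, where 6 of 8 member probes passed in each (49.8% and 44.7% of all probes). In both lines 4 of 8 were lower (19.8% of all probes) and 1 was higher (17.3% of all probes). CYP1B1 was lower than wild type by differences of -0.87 and -1.83, and CYP27B1 higher by 0.56 and 0.39. AHR was lower with ILMN_2162799 by -0.82 and -0.84 (adjusted p = 7.65e-05 and 7.10e-05, limma). With ILMN_1812640 it passed in sh53BP1-1 (-0.32, adjusted p = 0.0178, limma) and not in sh53BP1-2 (-0.24, adjusted p = 0.0842, limma). CYP4F11 was at least 2.00-fold and 2.04-fold lower, and CYP1A1 at least 1.30-fold and 1.32-fold lower. TIPARP turned: it did not pass in sh53BP1-1 (-0.16, adjusted p = 0.215, limma) and was higher than wild type in sh53BP1-2 (0.40, adjusted p = 0.00222, limma). CYP24A1 was not above background in either group. The fit was repeated without the 8 kinase lines for shControl minus wild type, each sh53BP1 line minus shControl, and the sh53BP1 pair. The calls and directions of these 32 member results stayed as they were. The sh53BP1 lines minus wild type were not refitted in this way.

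The 8 kinase lines are described without a test, since their contrasts with shControl were known when the members were chosen. Arrays did not overlap between line and shControl in all 8 lines for 4 member probes that were lower (CYP1A1, CYP1B1, CYP24A1 and AHR by ILMN_2162799; 18% of all probes) and for 1 that was higher (CYP27B1; 16.2% of all probes). Against wild type the same held for 2 that were lower (CYP1B1 and AHR by ILMN_2162799; 17.4% of all probes) and 2 that were higher (TIPARP and CYP27B1; 14.8% of all probes). Nothing is read from these counts.

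CYP1B1 was lower than shControl by 15.4-fold in shATM-3 to 77.1-fold in shATM-1, and lower than wild type by 7.51-fold to 37.6-fold in the same lines. On the deposited values, with no background correction, its differences from shControl were smaller, from -3.67 to -5.17 on the log2 scale. Over the 24 arrays its log2 signal ran from 6.34 through a median of 7.26 to 8.86, below each of the 6 sh53BP1 arrays. In order of group mean the lines were shATM-3 (8.72), shATR-4 (8.23), shCHK1-4 (7.92), shCHK2-1 (7.72), shCHK2-2 (6.89), shATR-3 (6.68), shCHK1-3 (6.64) and shATM-1 (6.4). Among neighbours in that order shATR-3 and shCHK1-3 overlapped.

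CYP1A1 was above background on all 3 arrays of shATM-3 (6.17, 6.0 and 6.02) and shATR-4 (5.47, 5.51 and 5.61), on 1 array of shCHK1-4 and 1 of shCHK2-1, and on none of the other 4 kinase lines. Where it was not above background on any array of a kinase line, it was at least 6.62-fold to 7.04-fold lower than in shControl. Against wild type, shATM-3 overlapped for CYP1A1, while shATR-4 lay below it. CYP24A1 was not above background on any of the 24 arrays, as in wild type, and was at least 12.9-fold to 14.5-fold lower than in shControl. On the deposited values the differences of the 8 lines from shControl ran from -1.70 to -1.21 for CYP1A1 and from -2.55 to -2.42 for CYP24A1.

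CYP27B1 was higher than shControl by 2.97-fold (shCHK1-3) to 4.49-fold (shATR-4), and by 2.84-fold to 4.28-fold against wild type. Its lowest kinase line array (log2 10.02) was above its highest array of the other 4 groups (9.26). The mRNA of the vitamin D activating enzyme was thus brightest in the kinase lines. That of the degrading enzyme, CYP24A1, was not above background in any group but shControl. TIPARP in the kinase lines was near shControl, higher by a log2 difference of 0.13 (shATR-4) to 0.49 (shATM-1), and 3 of 8 lines overlapped. Against wild type it was higher in all 8 lines by 1.23 to 1.59. CYP4F11 split the lines, from a difference of -2.59 in shATR-3 to 0.27 in shATM-3 against shControl, with 5 lines lower, 1 higher and 2 overlapping. On the deposited values the differences of the 8 lines ran from -1.23 to 0.19 for CYP4F11.

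The lines that carry different hairpins to the same mRNA give a test in which both sides share the target and, for the kinase pairs, the same state of MTAP, CDKN2A and CDKN2B. CYP1B1 passed in all 5 pairs and CYP4F11 in the 4 kinase pairs. The member probes that passed were 4 of 8 for ATM (42.5% of all probes), 5 of 8 for ATR (40.1%), 3 of 8 for CHEK1 (31.2%), 3 of 8 for CHEK2 (44.2%) and 2 of 8 for TP53BP1 (6.64%). The CHEK2 count includes CYP1A1, which was above background on only 1 of the 6 arrays of that pair.

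CYP1B1 was lower in shATM-1 than in shATM-3 by a difference of -2.32 (5.01-fold), in shATR-3 than in shATR-4 by -1.56 (2.94-fold) and in shCHK1-3 than in shCHK1-4 by -1.27 (2.42-fold). It was higher in shCHK2-1 than in shCHK2-2 by 0.84 (1.79-fold) and in sh53BP1-1 than in sh53BP1-2 by 0.96 (1.95-fold). The largest of these 5 adjusted p-values was 1.06e-07 (limma, SE 0.103 each), and arrays did not overlap in any pair. On the deposited log2 values the 4 kinase pair differences of CYP1B1 were -1.51, -0.99, -0.78 and 0.52.

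CYP4F11 split each kinase pair into a brighter and a dimmer line. It was 6.48, 6.31 and 6.11 in shATM-1 against 8.11, 7.94 and 8.03 in shATM-3 (-1.73). It was 4.86, 5.46 and 5.18 in shATR-3, where 1 array was above background, against 7.80, 7.78 and 7.83 in shATR-4 (-2.64). It was 5.80, 5.61 and 5.61 in shCHK1-3 against 7.54, 7.40 and 7.10 in shCHK1-4 (-1.67). It was 8.03, 7.62 and 7.81 in shCHK2-1 against 5.40, 5.13 and 5.10 in shCHK2-2 (2.61), again with 1 of the dimmer arrays above background. All 4 differences passed, with adjusted p between 3.72e-15 and 3.06e-10 (limma, SE 0.143 each). On the deposited log2 values they were smaller, at -1.02, -1.26, -0.80 and 1.26 in the same order. In the TP53BP1 pair CYP4F11 was not above background on either side.

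CYP1A1 was not above background in shATM-1 and shATR-3, which gave at least 1.62-fold less than in shATM-3 and at least 1.14-fold less than in shATR-4 (adjusted p = 1.70e-06 and 0.00553, limma). In the CHEK2 pair it was above background on 1 array of shCHK2-1 and 0 of shCHK2-2, so no size is given. The call of that pair (adjusted p = 0.0138, limma) was lost without shCHK2-1 replicate 3, the array above background (adjusted p = 0.197, limma). In the CHEK1 pair CYP1A1 did not pass (adjusted p = 0.108, limma), with 1 array of shCHK1-4 and 0 of shCHK1-3 above background. TIPARP was higher in shATM-1 than in shATM-3 by 0.35 and in shATR-3 than in shATR-4 by 0.33 (adjusted p = 0.00758 and 0.0102, limma). Those calls were lost without shATM-1 replicate 1 (0.27, adjusted p = 0.0548, limma) and without shATR-3 replicate 3 (0.29, adjusted p = 0.0524, limma). TIPARP was lower in sh53BP1-1 than in sh53BP1-2 by a difference of -0.55 (adjusted p = 0.000516, limma). CYP27B1 was lower in shATR-3 than in shATR-4 by -0.39 (adjusted p = 0.000764, limma) and in shCHK1-3 than in shCHK1-4 by -0.28 (adjusted p = 0.0161). The second of these calls was lost, by limma's adjusted p, without shCHK1-3 replicate 1 (0.0619) or 3 (0.0545), without shCHK1-4 replicate 1 (0.138), and when only the compared lines were fitted (0.177). Neither AHR probe passed in any of the 5 pairs.

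The basal keratin KRT14 differed along the same pairs. Its mean log2 signal in the brighter line of each pair was 11.52 for shATM-3, 12.36 for shATR-4, 11.06 for shCHK1-4 and 11.64 for shCHK2-1. In the dimmer line it was 8.85 for shATM-1, 9.19 for shATR-3, 9.32 for shCHK1-3 and 8.63 for shCHK2-2. LAMB3 ran from 11.98 to 12.37 in these dimmer lines and from 13.19 to 13.37 in the brighter ones, while EPCAM lay between 12.57 and 13.03 in the 8 lines. The part of these markers in the member results was not tested.

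**Figure D3:**
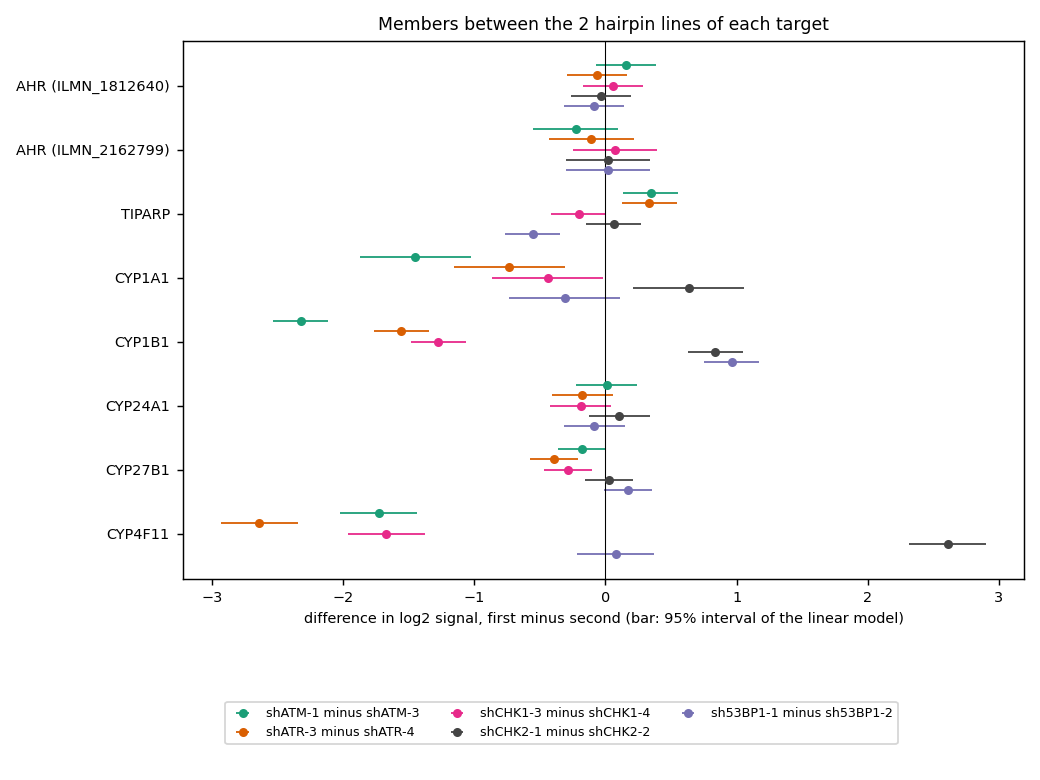
Difference in log2 signal (x axis) of the 8 member probes (y axis) between the 2 hairpin lines of each of the 5 targets, as points with the 95% interval of the linear model. CYP1B1 is away from 0 in all 5 pairs, CYP4F11 in the 4 kinase pairs, and both AHR probes span 0 in each pair. Points of CYP24A1 in every pair, of CYP1A1 in every pair and of CYP4F11 in the TP53BP1 pair rest on at least 1 line not above background, so their sizes are not measured. For CYP4F11 in the ATR and CHEK2 pairs the dimmer line was above background on 1 of 3 arrays.

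Other genes of the pathway were taken from lists by symbol, which were also drawn up with results of these arrays known. Of 22 further genes known to respond to AHR, 13 had a probe in the test, with 16 probes. The 16 include UGT1A6, which passed the filter only through the shControl arrays with both probes. Its direction between shControl and any other group was fixed in advance. In shControl minus wild type 11 of the 16 passed as higher (13.3% of all probes) and 1 as lower (14.8%), with a median difference of 1.21 against -0.02 over all probes. PTGS2, the inducible cyclo-oxygenase, rose by 5.24 with probe ILMN_2054297 (SE 0.128) and was at least 20.9-fold higher with ILMN_1677511. ALDH3A1, an aldehyde dehydrogenase of the xenobiotic battery, rose by 4.12 (SE 0.137), and the glucuronosyltransferase UGT1A6 was at least 8.15-fold higher with ILMN_1752813. EREG, a ligand of the EGF receptor, was the probe that fell, by 0.81 (adjusted p = 0.000778, limma). Several of these genes also answer to regulators other than AHR, such as NFE2L2 for NQO1 and NF-kB for IL1B and PTGS2.

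Against shControl, 14 of the 16 probes were lower in both sh53BP1 lines and 0 were higher (23.7% of all probes each way). For UGT1A6, kept only through shControl, the direction was fixed in advance. These contrasts share the shControl arrays with the one above, so each list is also given against wild type, where 9 of the 16 were lower in both sh53BP1 lines (19.8% of all probes) and 0 higher (17.3%). NQO1, the quinone reductase, was lower than shControl by differences of -2.82 and -2.86 with ILMN_2354953, and than wild type by -1.55 and -1.58. NDRG1, a stress-responsive gene, was lower than shControl by -2.72 and -2.01 and than wild type by -1.58 and -0.87. IL1B, the inflammatory cytokine, was not above background in either sh53BP1 line and was at least 17.1-fold and 17.4-fold lower than in shControl, and at least 2.77-fold and 2.82-fold lower than in wild type. ALDH3A1 was lower than wild type in sh53BP1-2 (-1.01) and did not pass in sh53BP1-1 (-0.32). The amino acid transporter SLC7A5 did not pass in shControl minus wild type (-0.15) or in either sh53BP1 line (-0.04 and -0.02).

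In the 8 kinase lines, which are again described without a test, arrays of 10 of these 16 probes lay below shControl in every line and those of 2 above it, against 18% and 16.2% of all probes. For UGT1A6, kept only through shControl, the direction was again fixed in advance. ALDH3A1 had a group mean of 11.80 in shControl and of 4.51 (shATR-3) to 5.99 (shATR-4) in the kinase lines, and was not above background in shATM-1, shATR-3, shCHK1-3 or shCHK2-2. IL1B went the other way, from a group mean of 6.97 in wild type and 9.59 in shControl to between 13.06 (shATM-1) and 14.36 (shCHK1-4). The kinase lines and the sh53BP1 lines lay on opposite sides of shControl for IL1B.

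Of 13 listed partners and coregulators of the receptor, 9 genes with 12 probes were tested, and in shControl minus wild type 2 were higher (13.3% of all probes) and 1 lower (14.8%). The kinase SRC, which is released from the AHR complex, rose by 0.81 and ARNT2 by 0.49, and the zinc finger factor KLF6 fell by 0.58. In both sh53BP1 lines 4 probes were higher and 4 lower than in shControl (23.7% of all probes each way), and 1 was higher (17.3%) and 3 lower (19.8%) than in wild type. SRC was lower than shControl by -1.84 and -1.49 and than wild type by -1.02 and -0.68, with 2 of 3 sh53BP1-1 arrays above background. The corepressor NRIP1 was lower than shControl by -1.29 in each line and than wild type by -1.18 in each. The chaperone HSP90AB1 was higher than shControl by 0.63 and 0.51 and than wild type by 0.67 and 0.55.

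Of 20 vitamin D genes, 8 with 10 probes were tested. In shControl minus wild type 5 probes were higher (13.3% of all probes) and 1 lower (14.8%). In both sh53BP1 lines 1 was higher and 6 lower than in shControl (23.7% of all probes each way), and 0 were higher (17.3%) and 4 lower (19.8%) than in wild type. The vitamin D receptor VDR had group means of 6.99 in wild type, 7.71 in shControl, and 6.90 and 6.92 in the sh53BP1 lines. It was higher in shControl than in wild type by 0.72 (SE 0.135), and the sh53BP1 lines did not pass against wild type (adjusted p = 0.623 and 0.730, limma). The kallikrein KLK6 had group means of 10.86 in wild type, 8.39 in shControl, and 10.41 and 10.99 in the sh53BP1 lines, which did not pass against wild type either (adjusted p = 0.0758 and 0.639, limma). The binding protein gene IGFBP3, with ILMN_1746085, was higher in shControl than in wild type by 1.29, and was lower in the sh53BP1 lines than in shControl (-4.96 and -4.15) and than in wild type (-3.67 and -2.86). The calcium channel TRPV6, a target of the receptor, rose by 0.82 in shControl and was at least 1.64-fold and 1.67-fold lower in the sh53BP1 lines, where it was not above background.

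The proteins that serve P450 enzymes were tested with 11 of 14 genes and 14 probes. In shControl minus wild type 4 probes were higher (13.3% of all probes) and 2 lower (14.8%). In both sh53BP1 lines 2 were higher and 4 lower than in shControl (23.7% of all probes each way), and 3 were higher (17.3%) and 5 lower (19.8%) than in wild type. The epoxide hydrolase EPHX1 rose by 1.20 (SE 0.163) in shControl, and in the sh53BP1 lines it was lower than shControl by -2.20 and -2.39 and than wild type by -1.0 and -1.20. The haem oxygenase HMOX1 was at least 3.20-fold and 3.26-fold lower in the sh53BP1 lines than in shControl, and at least 2.43-fold and 2.47-fold lower than in wild type. The common electron donor POR did not pass in shControl minus wild type or in either sh53BP1 line minus shControl (-0.13, 0.23 and 0.07).

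Of 52 other P450 genes on the array, 15 with 21 probes were tested. The 21 include the CYP4Z1 probes and CYP4F3 by ILMN_3251260, which passed the filter only through the shControl arrays. Their direction between shControl and any other group was fixed in advance. In shControl minus wild type 11 probes were higher (13.3% of all probes) and 1 lower (14.8%). In both sh53BP1 lines 4 were higher and 10 lower than in shControl (23.7% of all probes each way), and 3 were higher (17.3%) and 1 lower (19.8%) than in wild type. CYP4B1, a P450 of the CYP4 family, rose by 2.44 (SE 0.204) over wild type, where 1 of 3 arrays was above background. CYP4Z1 was at least 2.50-fold higher with ILMN_1728550, and CYP4F3 rose by 1.72 with ILMN_1736190. In the sh53BP1 lines CYP4B1 was at least 4.36-fold and 4.44-fold lower than in shControl and did not pass against wild type. CYP4F3 was lower than shControl by -1.92 and -3.12, and passed against wild type in sh53BP1-2 (-1.40) but not in sh53BP1-1 (-0.20). CYP4X1 did not pass between the sh53BP1 lines and shControl (0.07 and 0.22 with ILMN_2175317), and was higher than wild type in shControl (0.99) and in both sh53BP1 lines (1.06 and 1.21). CYP4F3 is a close relative of CYP4F11, and whether their probes share transcripts was not examined.

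**Figure D4:**
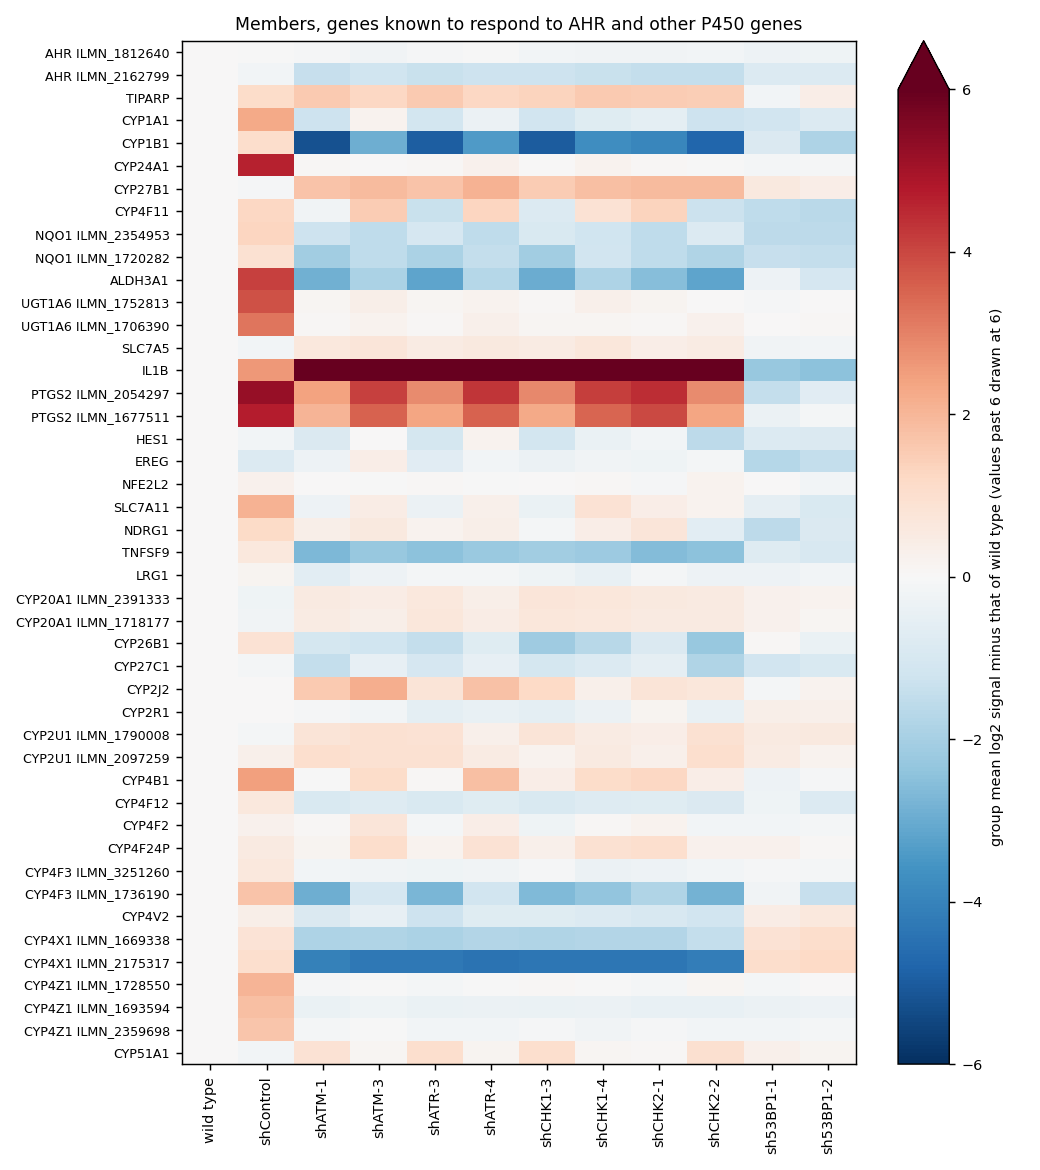
Group mean log2 signal minus that of wild type (colour, values past 6 drawn at 6) for the 8 member probes, the 16 probes of other genes known to respond to AHR and the 21 probes of other P450 genes (rows), in the 12 groups (columns). The shControl column is red for PTGS2, ALDH3A1, UGT1A6 and CYP24A1, and the 8 kinase columns are blue for CYP1B1.

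The genes whose 12 group means were most like those of each member were ranked by Pearson's r among 11041 genes, as a description over 12 points that share their arrays. CYP24A1 was above background in 1 of the 12 groups, as were the 3 genes most like it, UGT1A6 (r = 0.997), the differentiation caspase CASP14 (0.995) and PIP (0.994), so these values rest on the shControl point alone. CYP1A1 was above background on all arrays of 4 groups, and the genes most like it, IDUA (0.967), PYROXD2 (0.964) and AKR1B15 (0.964), in 2, 1 and 5 groups. CYP4F11 was above background in 8 groups and was most like RAPGEF3 (0.974, in 6 groups), the interferon gene IFNE (0.972, in 5) and the protease inhibitor TIMP1 (0.968, in 12). CYP1B1 was most like the ribosomal protein gene RPS2 (0.991), C11orf54 (0.989) and the peroxisomal isomerase ECH1 (0.987), all above background in 12 groups. CYP27B1 was most like THOC5 (0.989), EDARADD (0.987, above background in 10 groups) and TOMM34 (0.985). TIPARP was most like the chemokine CXCL2 (0.975), MSRB3 (0.970, above background in 9 groups) and GPAM (0.967). For CYP1B1, CYP27B1 and TIPARP the means of all 8 kinase lines lay on the same side of the other 4 groups. The part of that split in their r values was not tested. AHR by probe ILMN_1812640 was most like PRR14L (0.927), SLC4A5 (0.884) and ERO1A (0.862), and its other probe was not ranked.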

How the data were processed

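RNA from 36 samples was read on Illumina BeadChips. The deposited signal file holds intensity per probe, with no normalization or background subtraction by the authors, per its values, and per the file headers a detection p-value stands beside each signal. The deposited series values, on a log2 scale, equalled quantile normalized log2 signals within 0.0013. Scanner and slide are not given in the sources used here. Columns were joined to samples by title, and 0 columns lacked a sample.

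Signals were background corrected, quantile normalized and logged with neqc in limma 3.58.1 (offset 16). Probes with 1 gene name and a detection p under 0.01 on all 3 arrays of a group were kept. A model of 12 group means was fitted to 36 arrays (24 residual degrees of freedom), with Benjamini-Hochberg adjustment within each contrast and a threshold of 0.05. Fits were tested on simulated data. Mean array signal was 460 to 677 intensity units, 33.5% to 38.3% of probes were above background, and replicate correlations were at least 0.982. The number of arrays limits the precision.

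Members, lists and comparisons were chosen with earlier results of these data known. Named genes are all members and targets, the 3 largest called differences of each list with a few further list genes chosen after their values were seen, the 3 genes most like each member, and the markers. Replicate numbers did not pair samples: residuals with the same number had a mean correlation of -0.00132, others 0.000721. Alternatives were the deposited values, no background correction, no filter, a replicate block, 1 probe per gene, fewer groups, wild type as control and each array left out. List counts against wild type were added after the data were seen. R 4.3.3, the data.table package, version 1.17.8,, Python 3.11.15 and matplotlib 3.10.9 were used.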

Additional observations from a re-analysis of the deposited data

Results flagged for a closer look

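Values were singled out here where the lines of a target differed, by the limma test of 1 hairpin line against the other. With 1 line per hairpin, a difference between lines cannot be told apart from an effect of the hairpin. For CYP1B1 the differences were -2.32 (shATM-1 minus shATM-3), -1.56 (shATR-3 minus shATR-4), -1.27 (shCHK1-3 minus shCHK1-4), 0.84 (shCHK2-1 minus shCHK2-2) and 0.96 (sh53BP1-1 minus sh53BP1-2). For CYP4F11 they were -1.73, -2.64, -1.67 and 2.61 in the ATM, ATR, CHEK1 and CHEK2 pairs, in the same order. In the ATR and CHEK2 pairs its dimmer line was above background on 1 of 3 arrays. CYP1A1 gives only bounds, since shATM-1 and shATR-3 were not above background: at least 1.62-fold less than in shATM-3 and at least 1.14-fold less than in shATR-4. For TIPARP they were 0.35, 0.33 and -0.55 in the ATM, ATR and TP53BP1 pairs. For CYP27B1 they were -0.39 and -0.28 in the ATR and CHEK1 pairs. The TIPARP calls in the ATM and ATR pairs and the CYP27B1 call in the CHEK1 pair were lost in runs with 1 array left out. Groups of 3 arrays are too small for a check of single arrays that stand apart.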

How the results depend on the processing

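Counts of member probes called stayed within 1.5 times of those reported under every alternative run, and the replicate block changed no member call: with it 5 members passed in shControl minus wild type, and 8 and 7 in the sh53BP1 lines. With 1 array left out at a time the members called were 5 to 5 in shControl minus wild type, 7 to 8 and 7 to 7 in the sh53BP1 lines, and 3 to 4, 4 to 6, 2 to 3, 2 to 3 and 2 to 2 in the ATM, ATR, CHEK1, CHEK2 and TP53BP1 pairs. Pairs of a member and a kinase line without overlap with shControl were 51 to 58 of those counted, and list probes called in shControl minus wild type 32 to 38, against 51 and 39. Leaving out an array cannot lower the count of pairs without overlap, so its range is no check of that count. TIPARP in sh53BP1-2 turned to 0.40 with wild type as the control. The other reversals came from leaving out 1 array where the difference did not pass. The ranges over the arrays left out were, for AHR (ILMN_1812640), -0.121 to 0.000893 in shControl minus wild type, -0.172 to 0.0140 in the ATR pair, -0.0226 to 0.158 in the CHEK1 pair and -0.121 to 0.0731 in the CHEK2 pair. For AHR (ILMN_2162799) they were -0.204 to 0.00421 in the ATR pair, -0.0618 to 0.161 in the CHEK1 pair, -0.101 to 0.160 in the CHEK2 pair and -0.0727 to 0.157 in the TP53BP1 pair. They were -0.0563 to 0.101 for CYP24A1 in the ATM pair, -0.0196 to 0.107 for CYP27B1 and -0.0287 to 0.114 for TIPARP in the CHEK2 pair, and -0.0350 to 0.233 for CYP4F11 in the TP53BP1 pair. CYP24A1 gained a call in the ATR pair without shATR-4 replicate 1 (adjusted p = 0.023, limma), with both lines not above background. CYP1A1 in the CHEK2 pair also lost its call when only the compared lines were fitted (adjusted p = 0.0706, limma) and without shCHK2-2 replicate 2 (adjusted p = 0.0547, limma). AHR (ILMN_1812640) in sh53BP1-1 also lost its call, by limma's adjusted p, without the filter on dim probes (0.0574), without shControl replicate 3 (0.0754) and without sh53BP1-1 replicate 2 (0.0692). On the deposited values, without background correction, dim probes gave smaller differences, often smaller than the bounds reported. In the sh53BP1 lines this held for CYP4F11 (-1.29 and -1.31, at least 4.79-fold and 4.88-fold) and CYP1A1 (-1.66 and -1.55, at least 6.31-fold and 6.42-fold). It also held there for CYP24A1 (-2.62 and -2.56, at least 12.3-fold and 12.5-fold). CYP24A1 in shControl minus wild type (2.53, at least 14.5-fold) did the same. So did CYP1A1 and CYP24A1 in the kinase lines, and CYP1A1 in the ATM pair (-0.48, at least 1.62-fold). The bounds therefore hold for background-corrected signals only. The cause was not tested.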
